A study of Mus musculus with 5 samples.

Results

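The transcript levels of 10 transcription factors that set the fate of innate lymphoid cells (ILC) and T cells were followed in sorted mouse lymphocytes. The 10 genes, of 27179 in the count table, are Tcf7, Lef1, Tox, Tox2, Zbtb16, Nfil3, Gata3, Tbx21, Eomes and Bcl11b. They were taken by name, through their NCBI gene identifiers, and the rule uses no measured value. The choice of genes was made with earlier results of these data known. RNA was sequenced from 3 libraries of ILC3, the group 3 innate lymphoid cells that make IL-22, and from 2 libraries labelled CD4 T. All were from the C57BL/6 strain, and the design text speaks of 3 wild type mice. ILC3 carried a green fluorescent lineage reporter and were gated as CD45+, CD3- and CD127+, while the comparison cells were gated as CD45+CD3+CD4+. Both groups share the strain, and no treatment, age or time is named for either. Whether the comparison cells came from animals that carry the same reporter is not stated. The title of the series places the question in the gut, in the support of regulatory T cells by innate lymphoid cells.

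These factors act at successive branch points of lymphocyte development. TCF1 (encoded by Tcf7) and LEF1 are HMG-box proteins that bind the same DNA motif and work with beta-catenin or with Groucho/TLE corepressors. TOX and TOX2 are HMG-box proteins as well, and TOX is needed early in ILC development. NFIL3 is a basic leucine zipper protein required for ILC progenitors, and PLZF (Zbtb16) marks a progenitor of most ILC and is a hallmark of innate-like T cells. GATA3 serves T cells and ILC alike and is highest in ILC2 and T helper 2 cells. T-bet (Tbx21) and EOMES are the T-box pair of type 1 and cytotoxic lymphocytes, and BCL11B closes T cell commitment and is also used by ILC2.

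Of the 10 genes, 6 form 3 pairs of related genes, and their coding sequences were compared because reads of close relatives can be hard to assign. Each pair is shown by a 60-base window around the longest exact run that the partners share, from the GRCm38 coding sequence of a GENCODE M21 transcript, 5′ to 3′ on the coding strand, with capitals at the bases that differ.
Tcf7: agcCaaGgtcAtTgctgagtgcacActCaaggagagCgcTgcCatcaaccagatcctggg
Lef1: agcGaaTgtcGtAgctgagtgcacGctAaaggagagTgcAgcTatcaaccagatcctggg
Tox: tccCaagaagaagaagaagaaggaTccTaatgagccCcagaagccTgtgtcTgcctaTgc
Tox2: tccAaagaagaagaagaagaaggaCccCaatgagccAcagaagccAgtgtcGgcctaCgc
Tbx21: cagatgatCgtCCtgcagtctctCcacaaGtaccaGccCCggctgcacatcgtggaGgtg
Eomes: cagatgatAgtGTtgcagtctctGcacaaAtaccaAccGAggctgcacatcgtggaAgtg

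The Tcf7 window lies at chr11:52256956-52257015 on the minus strand, and the Lef1 window at chr3:131194721-131194780 on the plus strand. The Tox window is chr4:6722256-6722315 on the minus strand, and that of Tox2 is chr2:163315845-163315904 on the plus strand. The Tbx21 window spans an intron, from chr11:97100029-97101481 on the minus strand, as does the Eomes window at chr9:118481384-118482045 on the plus strand. In these windows 51 of 60 bases matched between Tcf7 and Lef1, 53 between Tox and Tox2, and 51 between Tbx21 and Eomes. The longest exact run shared by the whole coding sequences was 17, 20 and 16 bases for the 3 pairs. How the authors assigned reads with more than 1 match is not given in the sources used here.

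Libraries held 15123715 to 25956023 counts. Levels are given as CPM, counts per 1000000 counts, on a library scale set by TMM (trimmed mean of M values), and a count of 0 allows up to 0.116 to 0.198 CPM before that scaling. Of the markers of ILC3, 10 of 10 tested were called higher in ILC3, and they summed to 27324 to 30734 CPM there against 179.8 and 594 CPM in the CD4 T libraries. Of 11 T cell markers, 5 were called lower in ILC3 and none higher, and their sums overlapped, at 771 to 1505 CPM in ILC3 and 1456 to 4000 CPM in CD4 T. Of the gamma-delta constant genes, Trdc and Trgc1 were higher in every ILC3 library than in either CD4 T library. Trgc2 overlapped between groups, at 32.9, 38.0 and 7.95 CPM in ILC3 against 0.436 and 14.8 CPM, and was not called (edgeR adjusted p = 0.392). Trdc, chosen after its values were seen, was 475, 353 and 193 CPM in ILC3 against 0.832 and 2.27 CPM and was called higher (log2 7.78, edgeR adjusted p = 0.00343). Trgc1 was 362, 466 and 298 CPM against 0.278 and 23.4 CPM, a difference that was not called (edgeR adjusted p = 0.0774). It was called under alternatives that included no filter on low counts, DESeq2 and limma-voom. Libraries of both groups also held transcripts of other cells. Plasma cell markers summed to 18054, 100804 and 82581 CPM in ILC3 replicates 1, 2 and 3, and to 34694 and 21344 CPM in CD4 T. Of 8 plasmacytoid dendritic cell markers 7 were called lower in ILC3 (169 to 219 CPM summed, against 2161 to 2779), as were 5 of 7 of macrophages and monocytes (115 to 154 against 1428 to 2024). Of 7 conventional dendritic cell markers 3 were called lower and 2 higher (103 to 133 against 474 to 483). Cd8b1, a CD8 chain, was 336 and 433 CPM in CD4 T, where Cd4 was 142 and 90.1 CPM. Regulatory T cell markers were called lower in ILC3 for 4 of 7 (698 to 855 against 1157 to 2421 CPM), those of NK cells and ILC1 for 2 of 6 tested (719 to 979.7 against 2483 to 4705, with Klra8 at 0 in both groups), and those of ILC2 for 3 of 4 tested (26.1 to 40.2 against 251 to 278). Of 5 markers of CD8 and gamma-delta T cells 1 was called higher and 2 lower (499 to 871 against 583 to 662). None of the tested markers of B cells (136 to 281 against 81.9 to 136, Pax5 at 0 in both), plasma cells (18054 to 100804 against 21344 to 34694), mast cells (7.07 to 140.05 against 0 to 0.650) or stromal and endothelial cells (33.1 to 41.8 against 22.2 to 24.3) was called, and 1 of 3 epithelial markers was called lower (11.2 to 15.4 against 35.7 to 1929.5). Every difference below is between the transcripts that the libraries of both groups hold, and the part of these other cells in it was not tested. In such bulk samples fewer cells of a type and less RNA per cell cannot be told apart.

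Among the 10 factors, Tcf7 and Zbtb16 were called higher in ILC3 and Bcl11b was called lower. A gene was called at an adjusted p under 0.05 in edgeR's quasi-likelihood test over the 12747 genes that passed a filter on low counts. Of the 10 factors 9 passed, and Eomes did not. Over all genes tested, 6.46% were called higher and 7.21% lower. Zbtb16 entered the test only through ILC3, the group where it is high, so nothing is read from the count of 2 of 9 called higher against that share. For 7 of the 9 the groups did not overlap in CPM, beside 55.0% of all genes tested. Zbtb16 and Tbx21 are among the 7, and each passed the filter through the group where it is high. Without TMM scaling Tox and Nfil3 overlapped and Lef1 did not. Nothing is therefore read from this count either. The median log2 difference of ILC3 over CD4 T was -0.67 for the 9 factors, also with Zbtb16 at its lower bound, and -0.10 for all genes tested. The median of the factors is the value of Tox2 (SE 2.01), whose sign reversed under 3 of 14 alternatives. No direction of the factors as a set is therefore read from it. DESeq2's Wald test called 6 of the 9 (29.7% of its genes) and limma-voom 3 of the 9 (21.3%). The labels do not tie a library number to a mouse, so all p-values rest on the variation among the 5 libraries, part of which may be technical.

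**Figure D1:**
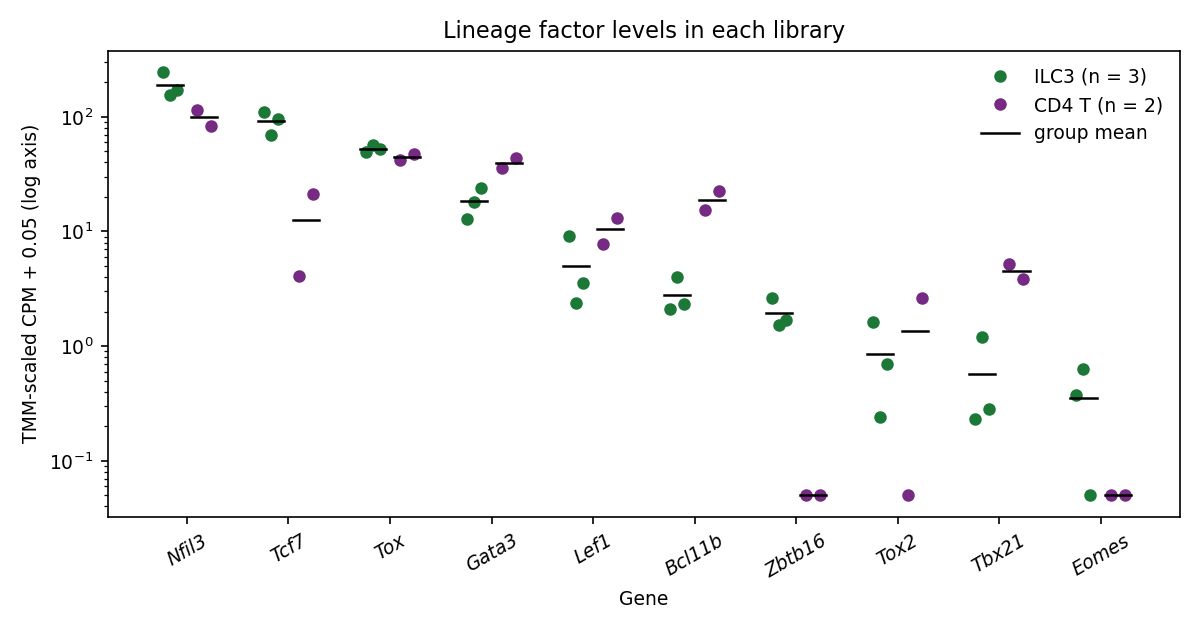
Level of each of the 10 factors in every library, as TMM-scaled CPM plus 0.05 on a log axis (1 point per library, 3 of ILC3 and 2 of CD4 T, with a bar at the mean of each group). Tcf7 lies at 69.4 to 110.3 CPM in ILC3 and at 4.08 and 21.2 CPM in CD4 T, Bcl11b lies the other way round, and Zbtb16 has no count in CD4 T.

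TCF1 transcripts were higher in ILC3, while the LEF1 difference was not called. Tcf7 (NCBI gene 21414, chromosome 11, 52246527 to 52283383 in GRCm38) stood at 110.3, 69.4 and 95.9 CPM in the ILC3 libraries and at 4.08 and 21.2 CPM in the CD4 T libraries. Every ILC3 library lay above both CD4 T libraries, which themselves were far apart. The log2 difference was 2.86 (SE 0.720, edgeR adjusted p = 0.0470). That call was lost without ILC3 replicate 1, 2 or 3 (edgeR adjusted p = 0.105, 0.0893 and 0.0886) and with library size as the only scaling (log2 2.41, edgeR adjusted p = 0.0675). Its size rested on which CD4 T library was used, at 4.50 without CD4 T replicate 2 and 2.12 without CD4 T replicate 1. In CD4 T replicate 2, where Tcf7 was the higher, the summed ILC3 markers were also higher, at 594 against 179.8 CPM. So were the sums of T cells (4000 against 1456 CPM), regulatory T cells (2421 against 1157) and NK cells and ILC1 (4705 against 2483). Other lists went either way, with plasmacytoid dendritic cells lower (2161 against 2779). The part of any of these in the Tcf7 value was not tested.

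Lef1 (NCBI gene 16842, chromosome 3, 131110297 to 131224357), the partner of Tcf7, was 9.09, 2.31 and 3.51 CPM in ILC3 and 7.77 and 13.1 CPM in CD4 T. ILC3 replicate 1 lay between the CD4 T libraries, so the groups overlapped on this scale. Without TMM scaling they just missed overlapping, at 9.709 CPM in ILC3 replicate 1 and 9.719 CPM in CD4 T replicate 1. The log2 difference of -1.07 (SE 0.780) was not called (edgeR adjusted p = 0.390). It was -1.85 when ILC3 replicate 1 was left out and -0.63 when CD4 T replicate 2 was. Within each library the 2 genes could be set against each other without any scaling, as counts per kilobase of exon. Lef1 was 0.0617, 0.0249 and 0.0274 times as abundant as Tcf7 in the ILC3 libraries, and 1.42 and 0.462 times as abundant in the CD4 T libraries. So the ratio differed by -4.52 on a log2 scale, with groups that did not overlap (exact permutation p = 0.1, the smallest that 3 against 2 libraries allow, and 0.15 after Benjamini-Hochberg adjustment over the 6 ratios computed). Leaving out CD4 T replicate 1 gave -3.71, and leaving out CD4 T replicate 2 gave -5.33.

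TOX was the most even of the factors. Tox (NCBI gene 252838, chromosome 4, 6686353 to 6991557) stood at 49.0, 56.6 and 52.7 CPM in ILC3 and 41.7 and 47.4 CPM in CD4 T. These levels lay close together in all 5 libraries, and the log2 difference of 0.25 (SE 0.273) was not called (edgeR adjusted p = 0.582). Its sign turned to -0.27 with library size alone, so no direction is given for Tox. Tox2 (NCBI gene 269389, chromosome 2, 163203058 to 163324172) rested on few counts, 44, 3 and 11 in ILC3, compared with 0 and 48 for CD4 T. The CD4 T libraries held both the lowest and the highest count. The log2 difference of -0.67 (SE 2.01) was not called (edgeR adjusted p = 0.853). It was -1.63 without ILC3 replicate 1 and -1.66 without CD4 T replicate 1. Leaving out CD4 T replicate 2 gave 7.13, where the remaining CD4 T library has no count. The ratio of Tox2 to Tox likewise overlapped between groups (log2 difference 0.79, exact permutation p = 0.8, adjusted 0.8), and was -2.15 without CD4 T replicate 1.

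PLZF and NFIL3 are both known from ILC progenitors. PLZF transcripts were seen in ILC3 alone and NFIL3 transcripts were abundant in both groups. Zbtb16 (NCBI gene 235320, chromosome 9, 48651797 to 48836225) had 72, 23 and 28 counts in the ILC3 libraries, or 2.60, 1.47 and 1.64 CPM. It had 0 counts in both CD4 T libraries, which allows up to 0.149 and 0.198 CPM there before scaling. Against the floor of 3 counts over the CD4 T libraries this was at least 29.6-fold higher in ILC3 (edgeR adjusted p = 0.04995). Zbtb16 passed the filter only through ILC3, and its call was lost under 9 of 14 alternatives. It was lost without ILC3 replicate 1, 2 or 3 (edgeR adjusted p = 0.0971, 0.0947 and 0.0818), then without CD4 T replicate 1 or 2 (edgeR adjusted p = 0.157 and 0.0868), with upper quartile scaling (edgeR adjusted p = 0.0502), with library size alone (edgeR adjusted p = 0.0547) and with no filter (edgeR adjusted p = 0.0617).

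Nfil3 (NCBI gene 18030, chromosome 13, 52967209 to 52982878) was the most abundant factor per kilobase in both groups. It stood at 246, 156 and 172 CPM in ILC3 and 116 and 83.4 CPM in CD4 T. All 3 ILC3 libraries lay above both CD4 T libraries on this scale, and they overlapped in CPM without TMM scaling. The log2 difference of 0.94 (SE 0.335) was not called by edgeR (adjusted p = 0.103) and was called by DESeq2 (adjusted p = 0.0281).

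GATA3, which ILC and T cells share, was lower in every ILC3 library than in either CD4 T library. Gata3 (NCBI gene 14462, chromosome 2, 9857078 to 9887953) stood at 12.9, 18.2 and 24.1 CPM in ILC3 and 35.6 and 43.5 CPM in CD4 T. The log2 difference of -1.11 (SE 0.379) was not called by edgeR (adjusted p = 0.0954). DESeq2 called it (adjusted p = 0.0485), and so did edgeR with library size alone (log2 -1.64, adjusted p = 0.0381). Gata3 shares its locus with 9230102O04Rik on the same strand, a gene with 0, 4 and 0 counts in ILC3, compared with 36 and 45 for CD4 T, and reads of overlapping genes cannot be told apart without the counting rule.

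Both T-box factors rested on few counts. Tbx21 (NCBI gene 57765, chromosome 11, 97098007 to 97115331) had 5, 18 and 4 counts in ILC3, compared with 130 and 70 for CD4 T, or 0.180, 1.15 and 0.234 CPM against 5.15 and 3.79. Both CD4 T libraries lay above every ILC3 library. The log2 difference of -3.10 (SE 1.26) was not called by edgeR (adjusted p = 0.140) and was called by DESeq2 (adjusted p = 0.0485). It was -4.40 without ILC3 replicate 2, the ILC3 library with the most counts of Tbx21. Tbx21 passed the filter through the CD4 T libraries, with 1 ILC3 library above the cutoff. Eomes (NCBI gene 13813, chromosome 9, 118478186 to 118486132) had 9, 9 and 0 counts in ILC3 and 0 in both CD4 T libraries. ILC3 replicate 3 was thus at the same 0 as the CD4 T libraries, and Eomes was left out by the filter. Against the floor of 3 counts the ILC3 level was at least 4.34-fold higher, and in a fit with no filter it was not called (edgeR adjusted p = 0.333).

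BCL11B was the factor called lower. Bcl11b (NCBI gene 58208, chromosome 12, 107910403 to 108004145) stood at 2.06, 3.97 and 2.28 CPM in ILC3 and 15.3 and 22.5 CPM in CD4 T. The groups were well separated, with means of 2.77 ± 1.05 CPM (SD, n = 3) and 18.9 ± 5.11 CPM (SD, n = 2). The log2 difference was -2.77 (SE 0.591, edgeR adjusted p = 0.0307). It kept its sign when each library was left out, but the call was lost each time: the edgeR adjusted p was 0.0871, 0.0641 and 0.0751 without ILC3 replicate 1, 2 or 3, and 0.0672 and 0.0816 without CD4 T replicate 1 or 2. Of 11 T cell markers 5 were also called lower in ILC3, namely Cd4, Cd3d, Trac, Cd5 and Cd6. Cd4 and Cd3d encode CD4 and a CD3 chain of the sort gates. Cd28 and Cd247 were lower in every ILC3 library without a call. Cd3e, Cd3g and Trbc2 overlapped between groups, and Trbc1 was higher in every ILC3 library than in either CD4 T library. The part of T cells in the Bcl11b difference was not tested.

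**Figure D2:**
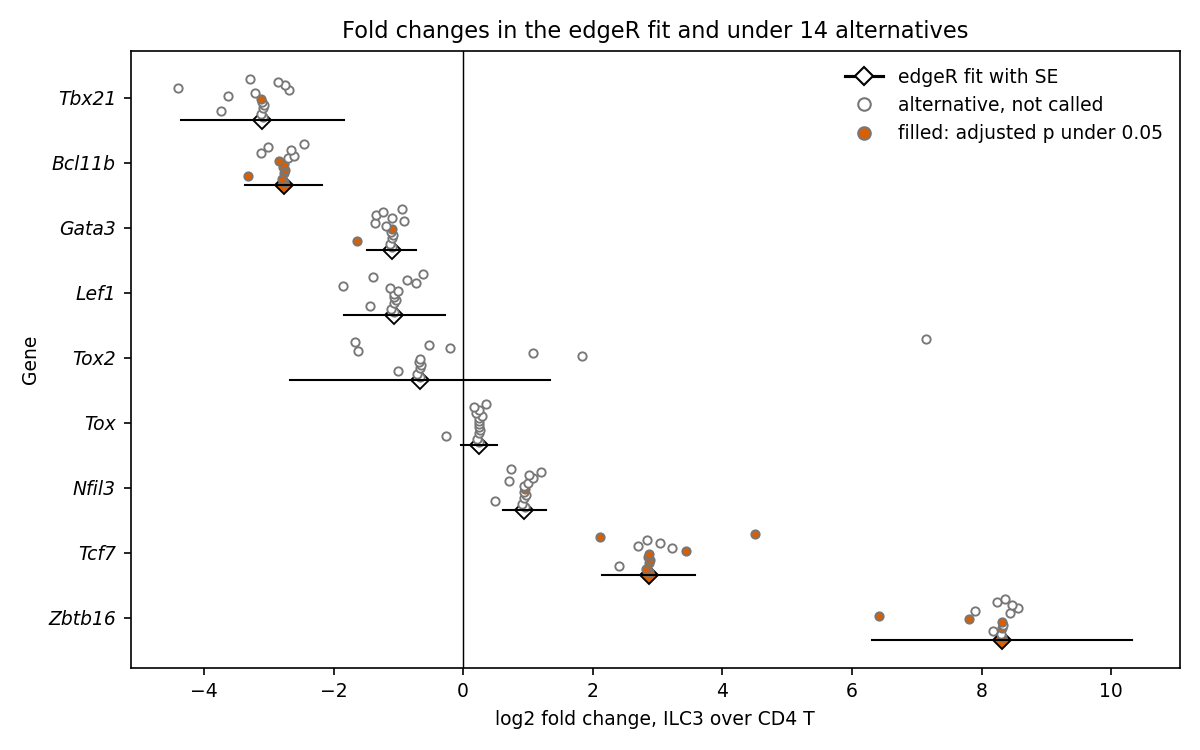
Log2 difference of ILC3 over CD4 T for the 9 factors tested, as the edgeR value with its SE (diamonds) and under 14 alternative settings (circles, filled where the adjusted p was under 0.05). Tcf7 stays above 0 and Bcl11b below 0 in each setting, Tox and Tox2 cross 0, and the Zbtb16 value depends on the prior count because CD4 T has no count.

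Ratios between factors within a library, per kilobase, were examined because they need no library scaling. Bcl11b was 0.00604, 0.0185 and 0.00770 times as abundant as Tcf7 in ILC3, and 1.21 and 0.343 times in CD4 T. That is a log2 difference of -6.05 with groups that did not overlap (exact permutation p = 0.1, adjusted 0.15), and it was -5.15 without CD4 T replicate 1 and -6.96 without CD4 T replicate 2. Tbx21 over Gata3 was 0.0181, 0.0819 and 0.0125 in ILC3, compared with 0.187 and 0.113 for CD4 T, a log2 difference of -2.25 (exact permutation p = 0.2, adjusted 0.24), and -2.99 without ILC3 replicate 2. ILC3 replicate 2 came near CD4 T replicate 2 here, and the groups still did not overlap.

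The other ratios hold a gene with no count in CD4 T, so they rest on the 1 count added to each gene. Zbtb16 over Gata3 was 0.123, 0.0493 and 0.0414 in ILC3, with 0 counts of Zbtb16 in CD4 T. The log2 difference of 6.50 (exact permutation p = 0.1, adjusted 0.15) was 7.48 with 0.5 counts added and 4.33 with 5 counts added. Eomes over Tbx21 was 1.21 and 0.337 in ILC3 replicates 1 and 2, and Eomes had 0 counts elsewhere. The log2 difference was 5.75 (exact permutation p = 0.1, adjusted 0.15). It was 3.97 with 5 counts added, and 4.97 and 6.50 without ILC3 replicate 1 or 3.

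**Figure D3:**
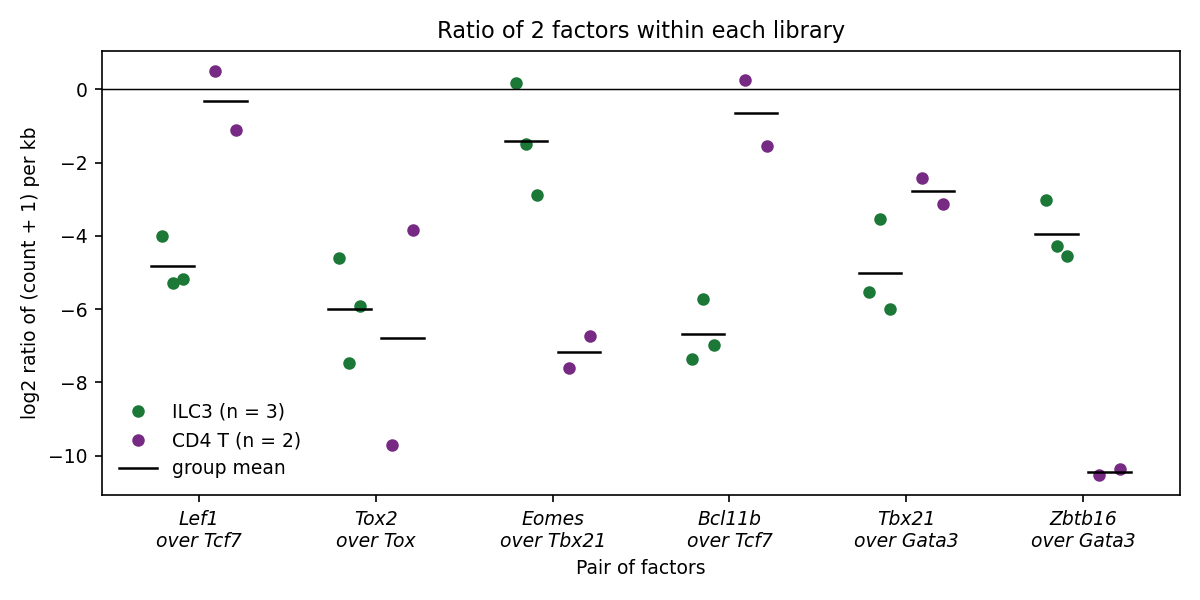
Log2 ratio of 6 pairs of factors within each library, from counts plus 1 per kilobase of exon, with 1 point per library, 3 of ILC3 and 2 of CD4 T. The Lef1 over Tcf7 and Bcl11b over Tcf7 points of CD4 T lie above all ILC3 points, and the Tox2 over Tox points overlap.

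Compared per kilobase of exon, Nfil3, Tox, Lef1 and Tox2 held the same places in the order of both groups (ranks 1, 3, 5 and 8), while Tcf7 and Gata3 exchanged ranks 2 and 4. In ILC3, the order was Nfil3 (94.4 ± 23.9 CPM per kilobase, SD, n = 3), Tcf7 (35.0 ± 7.90), Tox (13.3 ± 0.963), Gata3 (5.72 ± 1.74) and Lef1 (1.42 ± 1.03), and the libraries of each did not overlap with those of the next. Zbtb16 (0.360 ± 0.115), Bcl11b (0.341 ± 0.129), Tox2 (0.255 ± 0.224) and Tbx21 (0.210 ± 0.220) followed within each other's spread, and Eomes (0.0814 ± 0.0783) was last. In CD4 T, Nfil3 led again (49.1 ± 11.3, SD, n = 2). Gata3 (12.3 ± 1.74) and Tox (11.2 ± 1.02) overlapped in second place, and Tcf7 (4.82 ± 4.62), Lef1 (2.98 ± 1.08), Bcl11b (2.33 ± 0.630) and Tbx21 (1.797 ± 0.387) formed a chain of overlapping neighbours. Tox2 (0.410 ± 0.579) stood below them, and Zbtb16 and Eomes had no count.

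Placed among the 11506 genes with a level per kilobase, Nfil3 was at the 91.1 to 94.1 percentile in ILC3 and at the 92.1 and 88.4 percentile in CD4 T. Tcf7 was at the 82.2 to 86.3 percentile in ILC3 and at the 31.9 and 66.1 percentile in CD4 T. Bcl11b lay at the 16.3 to 21.8 percentile in ILC3 and the 35.1 and 44.2 percentile in CD4 T.

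**Figure D4:**
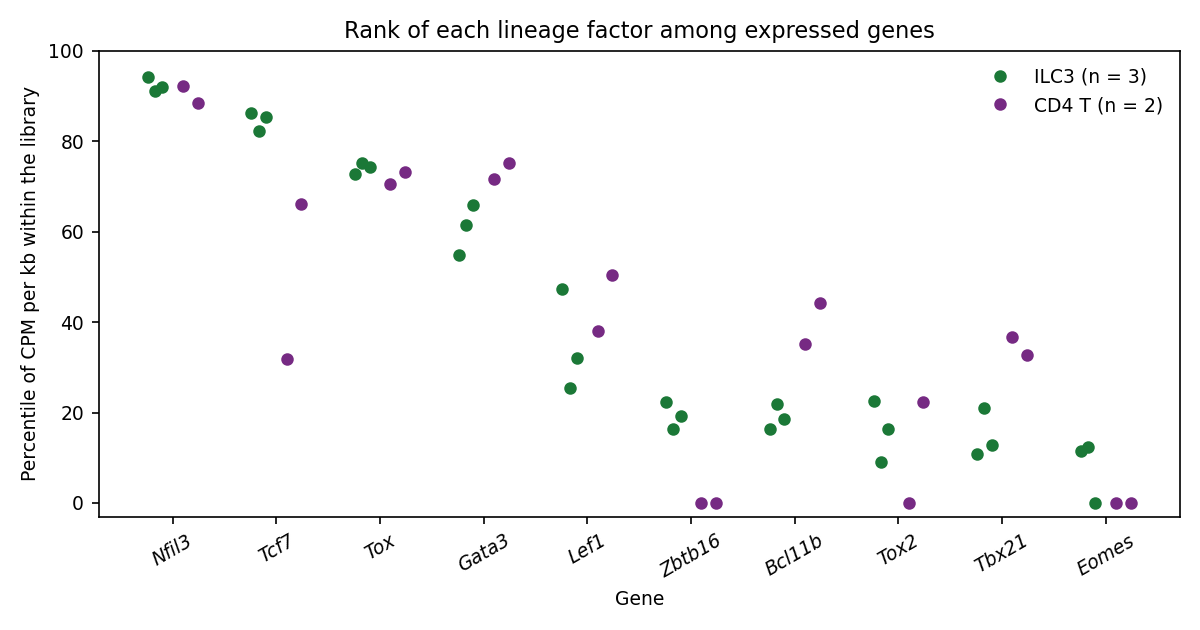
Percentile of each factor among 11506 genes ranked by CPM per kilobase of exon within each library. Nfil3 is near the top in all 5 libraries, and Tcf7 and Bcl11b sit at different heights in ILC3 and CD4 T.

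For each factor tested, the genes of most like pattern were found among 8022 or 8023 genes. The measure was the root mean square difference of centred profiles of log2 (CPM plus 0.5) over the 5 libraries. The added 0.5 CPM narrows the differences of factors with low CPM, such as Zbtb16, Tbx21 and Tox2. Tcf7 was matched by Zc3h14 (0.0813) and Nop56 (0.113), and Tox by Srp14 (0.0313) and Gtf2h5 (0.0415). Gata3 was matched by Zswim6 (0.0908) and Ago1 (0.106), Nfil3 by Fbxo22 (0.0629) and Galnt1 (0.0922), and Lef1 by Neu1 (0.182) and Gphn (0.210). Tbx21 was matched by Spi1 (0.102) and Cndp2 (0.126), Bcl11b by Tubgcp5 (0.189) and Lgals1 (0.200), Zbtb16 by Mppe1 (0.127) and Phlda1 (0.130), and Tox2 by Eef2 (0.233) and Prkcq (0.272). Spi1 encodes PU.1, a myeloid and B cell factor, and was 6.06, 14.4 and 5.20 CPM in ILC3 and 47.9 and 37.4 CPM in CD4 T. Among the factors themselves, Tbx21 and Bcl11b were the most alike (0.359), then Tox and Nfil3 (0.486). In CD4 T, Mppe1 was 7.06 and 7.36 CPM and Phlda1 26.6 and 29.1 CPM, where Zbtb16 had no count. The Zbtb16 matches therefore rest on the added 0.5 CPM. These are descriptions over 5 libraries that share 2 groups.

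Close relatives of the factors were next read, since a related protein can stand in for a factor. Of 13 relatives 10 were tested, 0 were called higher in ILC3 and 2 lower, beside 6.46% and 7.21% of all genes tested. Their median log2 difference was -2.42. Some of them, such as Tcf7l2, passed the filter only through CD4 T, so nothing is read from this count or median. Tcf7l2, the relative of Tcf7, had 1 count over all ILC3 libraries and 90.9 and 34.8 CPM in CD4 T (edgeR adjusted p = 0.00203). The ratio of summed counts, CD4 T over ILC3, was 4061 (95% interval 728 to 160446, counting error only). So Tcf7 and Tcf7l2 lay on opposite sides of the comparison. Zbtb7a, a relative of Zbtb16, was lower in ILC3 at 3.39, 4.10 and 4.03 CPM against 37.1 and 11.6 (log2 -2.66, edgeR adjusted p = 0.0377). Its call was lost without CD4 T replicate 1 (log2 -1.59, edgeR adjusted p = 0.249) and without ILC3 replicate 1, 2 or 3 (edgeR adjusted p = 0.102, 0.0985 and 0.0836). Leaving out CD4 T replicate 2 gave -3.26. Bcl11a, the relative of Bcl11b known from B cells and plasmacytoid dendritic cells and chosen here after its values were seen, was 0, 0.320 and 2.69 CPM in ILC3 and 29.0 and 16.7 CPM in CD4 T, and was not called (edgeR adjusted p = 0.0980). Plasmacytoid dendritic cell and macrophage markers, given above, were high in the same CD4 T libraries, and their part in these relatives was not tested.

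None of the cofactors of TCF1 and LEF1 passed the edgeR test. Of 13 genes 12 were tested by edgeR and 0 were called, with 5 at an unadjusted p under 0.05, where 4256 of all 12747 genes were. DESeq2 called 3 and limma-voom 1, beside 29.7% and 21.3% of all genes. Ctnnb1, which encodes beta-catenin, was 127, 145 and 166 CPM in ILC3 and 121 and 120 CPM in CD4 T, with a log2 value of 0.28 (SE 0.266; edgeR adjusted p = 0.516). Tle5, a short relative of the Groucho corepressors, was 175, 85.6 and 57.9 CPM against 46.7 and 44.7 (log2 1.21, SE 0.498, edgeR adjusted p = 0.143). Both genes were therefore present in every library.

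Genes linked with TCF1 and LEF1 in lymphocytes split, with more of them lower in ILC3. All 10 were tested, with 1 called higher and 4 lower, beside 6.46% and 7.21% of all genes tested, and a median log2 difference of -2.77. Klf2, a factor of quiescence and tissue exit, was 14.1, 6.53 and 7.13 CPM in ILC3 and 164 and 98.1 CPM in CD4 T, for a log2 difference of -3.82 (edgeR adjusted p = 0.00634). Id3, an inhibitor of E proteins, differed by -2.97 on the log2 scale (edgeR adjusted p = 0.0176). That call was lost without ILC3 replicate 1 or 2 (edgeR adjusted p = 0.0560 and 0.0631), and also without CD4 T replicate 1 (edgeR adjusted p = 0.0698). Cxcr5, the follicle homing receptor, was the gene called higher, at 46.4, 27.8 and 32.0 CPM against 1.27 and 4.87 (log2 3.53, edgeR adjusted p = 0.0244). The Cxcr5 call was lost without ILC3 replicate 1, 2 or 3 (edgeR adjusted p = 0.0782, 0.0603 and 0.0570), and the log2 value became 2.87 without CD4 T replicate 1 and 4.81 without CD4 T replicate 2.

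Genes linked with T-bet and EOMES split in both directions. Of 13 genes 12 were tested, 3 were called higher and 3 lower, beside 6.46% and 7.21% of all genes tested. The median log2 difference was -0.81. Ncr1, the activating receptor NKp46, was 202, 226 and 162 CPM in ILC3 with 2 counts over both CD4 T libraries, a ratio of 4299 (95% interval 1189.8 to 35503, counting error only; edgeR adjusted p = 0.000571). Il2rb and Stat4 were the others called higher. Ncr1 passed the filter only through ILC3, so nothing is read from the count called higher. Ccl5, a chemokine of effector lymphocytes, was lower in ILC3 by a log2 difference of -5.60 (edgeR adjusted p = 0.00194). Zeb2, a transcriptional repressor used by effector lymphocytes and also by myeloid cells and plasmacytoid dendritic cells, differed by -3.76 (edgeR adjusted p = 0.00412). Hopx, a small homeodomain protein, differed by -4.03 (edgeR adjusted p = 0.00655), or -3.13 without CD4 T replicate 2.

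Tested genes linked with GATA3 were called lower or not called. Of 13 genes 9 were tested, 0 were called higher and 2 lower, beside 6.46% and 7.21% of all genes tested. The median log2 difference was -1.78. This is the value of Il17rb (SE 1.61, edgeR adjusted p = 0.487), whose groups overlapped, so no direction of the list is read from it. For 4 of the 9 the groups did not overlap in CPM, beside 55.0% of all genes, and DESeq2 called 3, beside 29.7%. Il1rl1, the IL-33 receptor of ILC2 and of some regulatory T cells, was 3.18, 2.24 and 2.98 CPM in ILC3 and 30.8 and 41.1 CPM in CD4 T, for a log2 difference of -3.68 (edgeR adjusted p = 0.00593). Hpgds, a prostaglandin D2 synthase, differed by -3.08 (edgeR adjusted p = 0.00618). Of 7 markers of ILC2, Il13 had 0 counts in ILC3 and 1 in CD4 T and Ptgdr2 had 0 in both. Of regulatory T cell markers, 4 of 7 were called lower in ILC3.

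Genes of ILC progenitors also split. All 10 were tested, 3 were called higher and 3 lower, beside 6.46% and 7.21% of all genes tested, with a median log2 difference of -0.37. Il7r, which encodes CD127 of the sort gate, was 1266, 1027 and 1489 CPM in ILC3 and 211.5 and 227 CPM in CD4 T, for a log2 difference of 2.52 (edgeR adjusted p = 0.00795). Il18r1, the IL-18 receptor chain, was 248 ± 19.3 CPM over the ILC3 libraries (SD, n = 3), set against 31.6 ± 14.4 CPM for CD4 T (SD, n = 2), which differed on the log2 scale by 2.98 (edgeR adjusted p = 0.00831). Both receptors were thus higher in every ILC3 library. Only ILC3 were gated as CD127+ in the protocol given, so the Il7r difference is not read apart from the gate. Flt3, a receptor of early progenitors and dendritic cells, was 1.95, 1.92 and 1.75 CPM in ILC3 and 56.2 and 29.9 CPM in CD4 T, for a log2 difference of -4.52 (edgeR adjusted p = 0.00367). Flt3 is also 1 of the 7 markers of conventional dendritic cells, of which 3 were called lower in ILC3, and their part was not tested. The integrin chain Itga4 differed by -2.22 (edgeR adjusted p = 0.0104).

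Tested genes of T cell commitment were called lower in ILC3 or not called. Of 14 genes 12 were tested, 0 were called higher and 4 lower, beside 6.46% and 7.21% of all genes tested. The median log2 difference was -1.87. Cd5, Cd6 and Themis passed the filter only through CD4 T, the group where they are high. Nothing is therefore read from this count or this median. Cd5, a T cell surface inhibitor, had 1 count over the ILC3 libraries and 54.9 and 78.1 CPM in CD4 T (edgeR adjusted p = 0.00129). Cd6 had no count in ILC3, so it was at least 911-fold lower there (edgeR adjusted p = 0.00369). Cd3d differed by -2.54 (edgeR adjusted p = 0.0162), a call lost without ILC3 replicate 1 (edgeR adjusted p = 0.0646). Themis, a thymocyte signalling protein, had no count in ILC3 and was at least 156-fold lower (edgeR adjusted p = 0.0262). The Themis call was lost without ILC3 replicate 1 or 2 (edgeR adjusted p = 0.0614 and 0.0552), and also without CD4 T replicate 1 or 2 (edgeR adjusted p = 0.0695 and 0.102). Cells with surface CD3 were gated out of ILC3, and Cd3d was 110.4, 146 and 63.8 CPM in ILC3.

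The last list holds the effector and receptor genes of the ILC3 programme. Of its 17 genes 14 were called higher and 0 lower, beside 6.46% and 7.21% of all genes tested, with a median log2 difference of 4.16. Ncr1, which passed the filter only through ILC3, is among the 14. The GM-CSF gene Csf2 was 558 ± 41.7 CPM over the ILC3 libraries (SD, n = 3), set against 8.30 ± 1.36 CPM for CD4 T (SD, n = 2), which differed on the log2 scale by 6.07 (edgeR adjusted p = 0.000803). Tnfsf11, which encodes RANKL, was 912 ± 67.1 against 51.4 ± 7.39 CPM (log2 4.15, edgeR adjusted p = 0.00194).

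**Figure D5:**
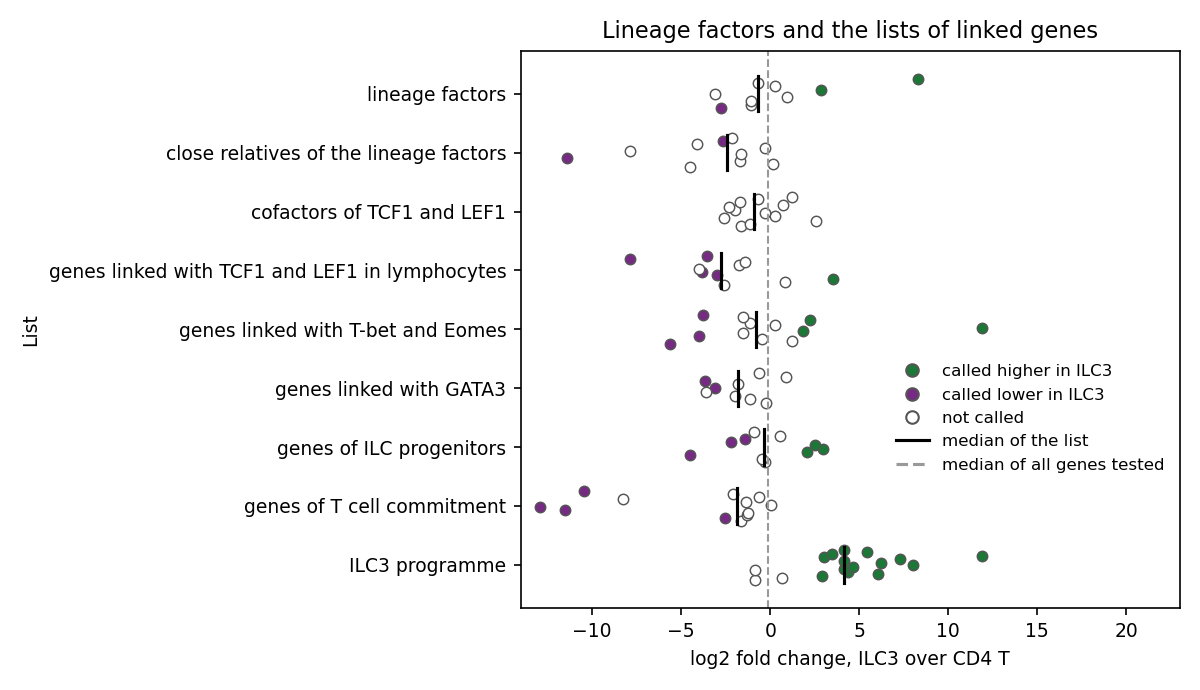
Log2 difference of ILC3 over CD4 T for the tested factors and 8 lists of related genes, with each gene as a point, coloured by its edgeR call, a bar at the list's median and a dashed line at the median of all genes tested. The median of the ILC3 programme lies to the right of the dashed line, and the medians of the factors and the other lists lie to its left. No direction is read from the medians of the factors, their close relatives, the GATA3 list or the T cell commitment list. Genes with no count in a group depend on the prior count.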

How the data were processed

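The authors deposited raw counts per gene, which are whole numbers. Per the labels' protocols, sorted cells went into the Clontech kit SMARTer Ultra Low Input RNA Kit V4, and the submitters' processing notes name CASAVA 1.8.2, STAR 2.3.0 and mm10 (the UCSC name of GRCm38). No counting tool or strand setting is given in the sources used here. Antisense and overlapping genes therefore cannot be told apart. Of 27179 identifiers, 25275 matched RefSeq (GRCm38.p6). Exon lengths are unions over GENCODE M21 protein-coding transcripts.

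Counts were fitted with edgeR 4.0.16 (R 4.3.3): filterByExpr by group, TMM scaling, and the quasi-likelihood F test of ILC3 against CD4 T on all 5 libraries, with 3 residual degrees of freedom, no covariate, and Benjamini-Hochberg adjustment over 12747 genes. SE is the log2 difference divided by the square root of F. A group with no count was set at 3 counts over its libraries, and ratios with 1 to 3 counts have exact 95% intervals. Floors and intervals cover counting error only: the reads were amplified, and no molecular identifiers separate copies from molecules. Ratios used 1 added count and an exact two-sided permutation test.

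The members, lists and tests were chosen with earlier results of these data known. Named genes are the 10 factors, up to 4 called members of each related list with the smallest p (or the 2 with the highest CPM), the marker with the highest CPM in each group, and the 2 genes of most like pattern among those with a mean of at least 5 CPM. Some genes that this rule takes are not reported here. Alternatives were other scalings and filters, DESeq2 1.42.0, limma-voom (limma 3.58.1), a replicate block and leaving out each library.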

Additional observations from a re-analysis of the deposited data

How the results depend on the processing

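Genes called higher numbered 824 and genes called lower 919, with 2 and 1 of the factors among them. With library size alone these were 384 higher and 1502 lower, with 0 factors higher and 2 lower, and the median log2 difference of all genes moved from -0.10 to -0.60. With no filter 1250 were higher and 1 factor was; with upper quartile factors 1 factor was higher. DESeq2 called 1914 higher and 1858 lower, with 3 factors higher and 3 lower, and limma-voom 1317 higher and 1402 lower. Leaving out 1 library gave 269 (without ILC3 replicate 2) to 1712 (without CD4 T replicate 2) higher and 306 to 960 lower, with 0 to 1 factors higher and 0 to 0 lower. Where 1 CD4 T library remained, it was assumed to vary like the other libraries. With a replicate block, 215 were higher and 305 lower, with 0 factors in either direction. The deviations of same-numbered samples correlated at -0.0390 and -0.0415 in the 2 pairs. With 2 CD4 T libraries, whose deviations mirror each other, this cannot show whether numbers mark shared mice, so the pairing is unknown and a call lost under the block is not read as a weaker effect.

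Signs reversed for Tox (-0.27 with library size alone), for Tox2 (1.84 with limma-voom, 1.07 with the replicate block, and -1.66 to 7.13 when 1 library was left out) and for Tox2 over Tox (-2.15 to 3.73 when 1 library was left out). The ratio of Zbtb16 to Gata3 moved to 7.48 and 4.33 with 0.5 and 5 added counts, and that of Eomes to Tbx21 to 3.97 with 5. The cause was not tested. Of the recomputed factor differences, 98 kept their sign and side of the threshold, 20 kept their sign and lost the call, 4 gained a call and 4 reversed. Depth limits Tox2, Zbtb16, Tbx21 and Eomes, each of which had a count under 20 in at least 1 library.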
